A study of Mus musculus with 53 samples.

Results

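The Sox genes described here are 10 transcription factor genes of 4 subgroups, taken by name: Sox1, Sox2 and Sox3 (SoxB1), Sox4 and Sox11 (SoxC), Sox5 and Sox6 (SoxD), and Sox8, Sox9 and Sox10 (SoxE). Of these, 9 were matched by gene ID to the deposited table of 37991 gene IDs, while Sox1 had no matching ID and is not analysed here. RNA was sequenced from embryonic cortex of untreated C57bl/6 mice at E16.5, labelled as control without stimulation. The labels give 3 such libraries among 53 libraries of 19 groups in the series, the others being cultured neurons and astrocytes and adult hippocampus. The stated aim of the series concerned neuronal activity, adult plasticity and histone turnover, and the embryonic cortex is the group used here. Because the authors gave 1 mean per gene over the 3 libraries, no value for a single library, no SD and no p-value can be given, and no group was compared with another.

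Sox proteins bind DNA through a single HMG box that bends the double helix, and they act with partner factors that differ between cell types. In the developing cortex SoxB1 proteins hold neural progenitors in their dividing state, SoxC proteins act in newly formed neurons, and SoxE proteins act in glial cells and their precursors. SoxD proteins lack an activation domain of their own and act in both neurons and glia: Sox5 in the timing of deep-layer, subcortically projecting neurons and Sox6 in cortical interneurons. In bulk tissue, fewer cells of a type and less RNA per cell cannot be told apart.

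The subgroups are visible in the coding sequence of the HMG box itself, which is shown for 6 members because their likeness also bears on whether reads could be assigned to 1 gene. Each line gives the first 120 bases of the box, 5′ to 3′, from GENCODE M21 transcripts (GRCm38). Capitals mark bases that differ from Sox2.
Sox2: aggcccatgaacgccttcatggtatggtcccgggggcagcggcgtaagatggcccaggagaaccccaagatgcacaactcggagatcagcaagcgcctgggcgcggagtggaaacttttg
Sox3: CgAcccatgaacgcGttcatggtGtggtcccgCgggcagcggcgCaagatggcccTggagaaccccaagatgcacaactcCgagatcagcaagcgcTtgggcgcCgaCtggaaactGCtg
Sox4: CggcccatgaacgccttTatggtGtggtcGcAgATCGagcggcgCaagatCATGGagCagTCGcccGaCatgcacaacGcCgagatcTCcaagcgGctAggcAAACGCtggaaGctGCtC
Sox11: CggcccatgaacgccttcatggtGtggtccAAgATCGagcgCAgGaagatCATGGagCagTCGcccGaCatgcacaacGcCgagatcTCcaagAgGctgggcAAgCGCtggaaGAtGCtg
Sox5: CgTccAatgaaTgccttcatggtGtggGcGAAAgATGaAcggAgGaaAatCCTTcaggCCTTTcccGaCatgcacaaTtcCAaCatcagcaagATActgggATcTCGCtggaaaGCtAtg
Sox9: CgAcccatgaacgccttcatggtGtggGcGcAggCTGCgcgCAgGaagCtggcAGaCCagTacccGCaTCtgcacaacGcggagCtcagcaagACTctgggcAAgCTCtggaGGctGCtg
In these stretches Sox3 differed from Sox2 at 13 bases, Sox4 and Sox11 at 37 each, Sox9 at 37 and Sox5 at 44. Over the whole box of 237 bases, the 8 pairs of members within a subgroup were 80.6% to 89.9% identical, against 50.2% to 70.5% in the 37 pairs between subgroups. The ranges do not overlap. Because Sox subgroups are themselves drawn by likeness of sequence, this describes the grouping and does not test it. Sox6 and Sox8 were the least alike, and Sox1 and Sox3 the most. The longest run of identical bases between whole transcripts of any pair was 48, between Sox4 and Sox11, and the next were 45 between Sox1 and Sox3 and 44 between Sox9 and Sox10. A read longer than such a run cannot match both transcripts without a mismatch. Read length is not stated in the labels.

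**Figure D1:**
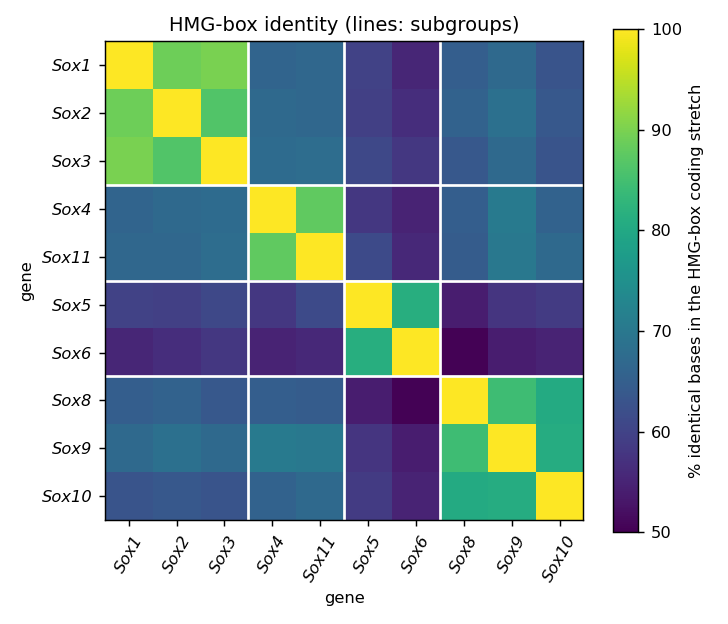
Percent of identical bases in the HMG-box coding stretch (colour) for each pair of the 10 Sox genes, with white lines between subgroups. Pairs within a subgroup reach 80.6% to 89.9%, and the pairs of Sox5 and Sox6 with other subgroups are among the least alike.

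Levels are given on 2 scales. The deposited unit is RPKM, which divides a gene's reads by its length in kilobases and by the library's M reads. Which length was used was read from low values. The 3 library depths were taken as the fullest narrow peaks of these values with whole-gene length, introns included. At those depths, 664 of 779 low values of multi-exon genes (85.2%) lay within 0.5% of what 1 read in 1 of 3 libraries would give. With exon length 41 of 907 (4.52%) did. Exon length was scored at the same depths and given no peaks of its own, so the comparison favours whole-gene length. Whole-gene length is taken here as the length used. The same steps gave libraries of 51.3, 64.8 and 71.6 M reads, 188 M reads in all. Sox2, Sox3, Sox4 and Sox11 consist of a single exon, so both lengths are the same for them. The Sox5 gene spans 953553 bases, 66.3 times its merged exons, and Sox6 spans 567925 bases, 38.3 times its exons. Each level is therefore also given per kilobase of merged exons, with the same scaling to M reads, taking all counted reads to lie in exons.

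The SoxC genes stood highest of all members by both scales. Sox4, a SoxC factor of new neurons, had a level of 97.2 RPKM, with a 95% counting interval of 96.6 to 97.8. Sox11, its close paralog, had a level of 91.6 RPKM (91.1 to 92.1). Both lay at percentile 99.6 of the 20230 protein-coding genes, meaning that this share of them had lower RPKM. Sox4 was thus 1.06-fold above Sox11, which is outside counting error, while the spread between libraries is not known. By reads with no length, the order turned: an estimated 142906 reads lay behind Sox11 and 87469 behind Sox4, because the Sox11 transcript is 8311 bases long and that of Sox4 4795. Gm26735, a long non-coding gene with no matching ID, overlaps 2753 bases of Sox4 on the opposite strand, and strand use in the counting is unstated in the labels. Together the SoxC members held 77.3% of the reads of the 9 measured members.

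SoxB1 genes came next as deposited. Sox2, which keeps neural progenitors dividing, had a level of 20.2 RPKM (19.8 to 20.7), at percentile 97.9 of protein-coding genes. Sox3, an X-linked SoxB1 gene of progenitors, had 4.28 RPKM (4.08 to 4.49), at percentile 88.8. On the exon scale, where the levels of multi-exon genes rise, these percentiles were lower, 90.4 for Sox2 and 63.2 for Sox3. Sox2 was 4.72-fold above Sox3, and 3.93-fold when lengths were taken from RefSeq, where Sox2 spans 2467 rather than 2057 bases. The Sox2 gene lies wholly inside Sox2ot, a long non-coding gene on the same strand that had no matching ID. For Sox1, its host transcript Sox1ot, which contains the whole of Sox1 on the same strand, stood at 0.567 RPKM with an estimated 5427 reads. How many of these came from Sox1 was not tested, so that value is not one for Sox1.

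SoxE genes stood below Sox2 on both scales, with Sox9 above Sox8 and Sox10. Sox9, a factor of radial glia and of astrocyte formation, had 3.97 RPKM (3.85 to 4.09) and 5.32 per kilobase of exon. Sox8, which overlaps in function with Sox9 and Sox10 in glia, had 2.63 RPKM (2.52 to 2.73) and 4.04 per kilobase of exon. Sox10, the SoxE gene of the oligodendrocyte lineage and of neural crest, was the lowest of the 3, with 0.331 RPKM (0.306 to 0.358) and 1.12 per kilobase of exon. In RPKM, Sox9 was 12.0-fold above Sox10 and 1.51-fold above Sox8. By exon length these ratios were 4.74 and 1.32. An estimated 642 reads lay behind Sox10, against 4126 behind Sox9. The antisense gene 2810468N07Rik, at 0.381 RPKM, overlaps 329 bases of Sox8.

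The SoxD genes were the lowest by RPKM and not by reads. Sox5 had 0.229 RPKM (0.227 to 0.231), at percentile 50.7 of protein-coding genes, yet 15.2 per kilobase of exon, at percentile 86.5 on that scale. An estimated 40987 reads lay behind it, the third most of the members, after Sox11 and Sox4. Sox6 had 0.0961 RPKM (0.0942 to 0.0980), at percentile 43.8, and 3.68 per kilobase of exon, at percentile 60.7, with an estimated 10241 reads. Sox2 was 88.2-fold above Sox5 in RPKM and 1.33-fold above it per kilobase of exon. When only exons of protein-coding transcripts were counted, Sox5 had 28.7 and Sox6 5.79 per kilobase, which places Sox5 above Sox2. Sox5 was 2.38-fold above Sox6 in RPKM and 4.13-fold by merged exons. The 6 measured genes annotated inside Sox5, of which Sox5it lies on the same strand and the others are antisense, cover 8.98% of its span and held an estimated 15 reads together. Whether reads within the Sox5 and Sox6 introns were counted was not tested, and if they were, the values per kilobase of exon are too high.

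**Figure D2:**
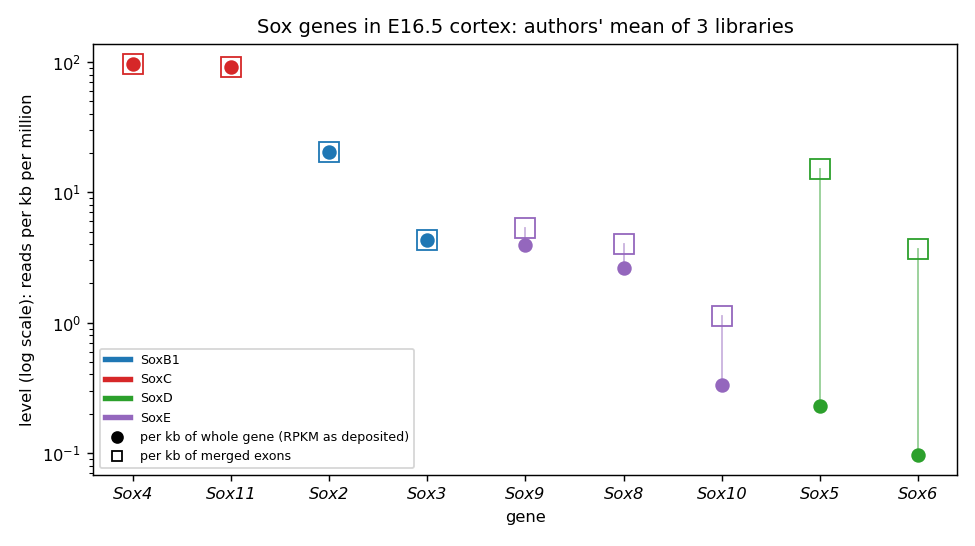
Level of each measured Sox gene (log axis, reads per kilobase, scaled to M reads) as deposited, per kilobase of the whole gene (filled circles), and per kilobase of merged exons (open squares), coloured by subgroup. The scales coincide for the single-exon genes Sox4, Sox11, Sox2 and Sox3, while Sox5 stands at 0.229 on the first scale and 15.2 on the second.

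The order of levels below the SoxC genes turns on the length used. As deposited it ran from Sox4, Sox11, Sox2, Sox3, Sox9, Sox8 and Sox10 to Sox5 and Sox6. Only the neighbours Sox3 and Sox9 had counting intervals that overlap. Per kilobase of merged exon the order was Sox4, Sox11, Sox2, Sox5, Sox9, Sox3, Sox8, Sox6 and Sox10, with an overlap of intervals only between Sox3 (4.08 to 4.49) and Sox8 (3.88 to 4.21). Counting intervals leave out the variation between libraries, so neighbours within about 1.5 times of each other, such as Sox4 and Sox11, Sox2 and Sox5, or Sox8 and Sox6 per kilobase of exon, cannot be ranked for the tissue from these values.

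Subgroups were compared by the median of log2(RPKM + 0.1) over their measured members, a scale that understates differences of low genes. SoxC stood above SoxB1 by 3.32, above SoxE by 5.12 and above SoxD by 8.54. SoxB1 stood above SoxE by 1.79 and above SoxD by 5.22, and SoxE above SoxD by 3.42. Per kilobase of merged exon, SoxC kept the lead, by 3.32 over SoxB1, 4.51 over SoxE and 3.64 over SoxD. On that scale SoxB1 minus SoxD was 0.31 and SoxE minus SoxD was -0.88, so the place of SoxD is set by the length used. Members of SoxD ranged from 3.68 to 15.2 per kilobase of exon and those of SoxE from 1.12 to 5.32, and these ranges overlap. With 2 or 3 genes a subgroup, these differences describe the genes and carry no test.

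Against all protein-coding genes, 6 of the 9 measured members reached 1 RPKM, where 31.6% of protein-coding genes did. The members that did not were Sox10, Sox5 and Sox6. At 10 RPKM or more were 3 members, Sox2, Sox4 and Sox11, and 4.5% of protein-coding genes. Per kilobase of merged exon all 9 measured members reached 1, and 54.0% of protein-coding genes. The median of the members was 3.97 RPKM, against 0.213 RPKM over protein-coding genes, and 5.32 against 1.57 per kilobase of exon.

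**Figure D3:**
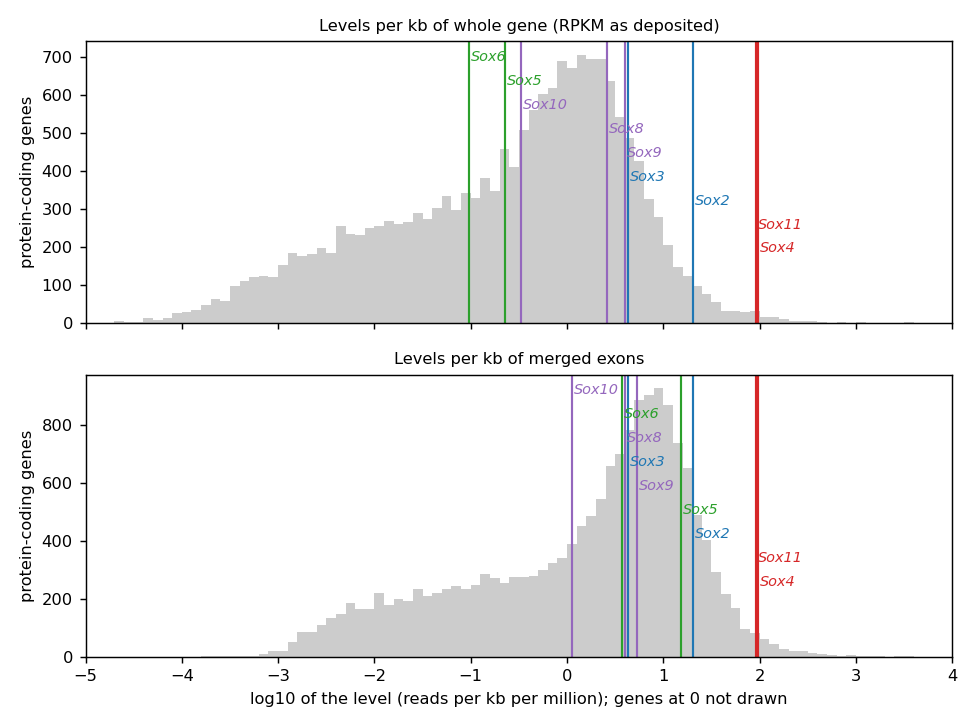
Protein-coding genes above 0 (grey, number of genes per bin of log10 level) with the 9 measured Sox genes as coloured lines, per kilobase of whole gene above and of merged exons below. Sox4 and Sox11 stay in the upper tail on both scales, and Sox5 moves from the middle of the upper panel, 0.229, to 15.2 in the lower one.

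Of the other Sox genes, Sox12, the third SoxC gene, stood out with 37.5 RPKM and an estimated 31341 reads. Sox4 was 2.59-fold and Sox11 2.44-fold above Sox12. Sox4, Sox11 and Sox12 together held 78.1% of the reads of all 19 measured Sox genes, Sry included. Sox21, a SoxB2 gene that counteracts SoxB1 proteins in neuron formation, had 3.97 RPKM (3.83 to 4.12), so that Sox2 was 5.09-fold above it and Sox3 1.08-fold, with overlapping intervals. Sox14, the other SoxB2 gene, was listed at 0. Sox13, the third SoxD gene, had 0.139 RPKM and 1.36 per kilobase of exon, so that Sox5 was 1.64-fold above it in RPKM and 11.2-fold on the exon scale. The SoxF genes, known for roles in blood vessel lining, stood at 2.01 (Sox18), 0.518 (Sox17) and 0.353 RPKM (Sox7). The endothelial markers Cldn5, Kdr, Cdh5 and Pecam1 stood at 17.3, 0.570, 0.280 and 0.133 RPKM, and the part of endothelial cells in the SoxF levels was not tested. Sox15 had 0.0119 RPKM (0.00233 to 0.033), on an estimated 3 reads, which is the floor used here. Sox30, a gene of male germ cells, had 0.00936 RPKM, and Sry, the testis-determining gene, was listed at 0. For a gene of the length of Sox14, a count of 0 allows up to 3 reads, or 7.74e-03 RPKM.

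**Figure D4:**
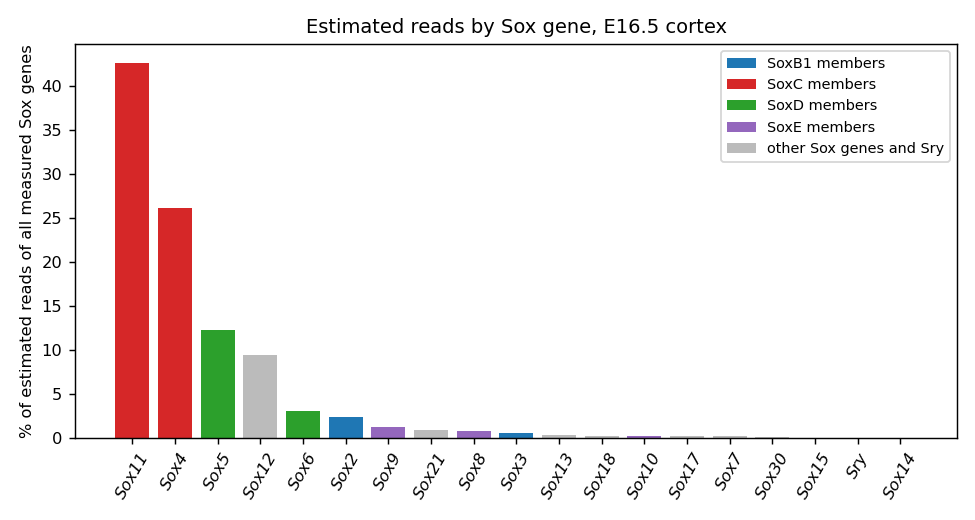
Share of the estimated reads of all 19 measured Sox genes held by each gene (bars, percent), with members coloured by subgroup and other Sox genes in grey. Sox11 holds 42.6%, Sox4 26.1%, Sox5 12.2% and Sox12 9.35%, while Sox2 holds 2.33%.

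The tissue label was set beside defining markers. As background for each count, 31.6% of all protein-coding genes reached 1 RPKM and 54.0% reached 1 per kilobase of exon. All 4 radial glia markers (Pax6, Fabp7, Hes5, Vim) and all 4 neuron markers (Tubb3, Dcx, Map2, Neurod6) reached 1 RPKM, with sums of 138 and 378 RPKM. Of the 5 interneuron markers, 3 reached 1 RPKM and all 5 reached 1 per kilobase of exon. Of the 4 oligodendrocyte precursor markers these counts were 2 and 3, of the 4 astrocyte markers 1 and 2, and of the 4 endothelial markers 1 and 4. None of the 3 mesenchymal markers reached 1 RPKM, with a sum of 0.771 RPKM, while 1 of them, the cartilage collagen gene Col2a1, reached 2.03 per kilobase of exon. None of the 4 neural crest and Schwann cell markers reached 1 on either scale. Their sum was 0.0829 RPKM, and they ranged from 0.00274 RPKM for Foxd3 to 0.0465 for S100b, beside 0.331 RPKM for Sox10. The Foxd3 value rests on an estimated 1 read, below the floor of 3 reads. The cells behind the Sox10 reads were not tested.

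Genes known to work with SoxB1 proteins or to mark the same progenitors were listed as well. Of the 14 measured, 11 reached 1 RPKM, where 31.6% of protein-coding genes did. On the exon scale 13 reached 1 per kilobase, where 54.0% of protein-coding genes did. The medians of the list were 1.79 RPKM and 4.18 per kilobase of exon. Fabp7, a lipid-binding protein of radial glia, was the highest at 102 RPKM and Pou3f3, one of the POU factors that pair with Sox2 on DNA, was next at 86.0 RPKM. Pou3f1, of the same POU family, was listed at 0, and Pou3f2 had no matching symbol. Whether the 0 of Pou3f1 stands for absent RNA or for how reads were counted was not tested. Pax6, a further partner of Sox2, stood at 1.57 RPKM. Sox2 was 12.8-fold above Pax6 in RPKM and 5.28-fold by exon length, with an estimated 7801 reads against 8407 for Pax6.

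Genes tied to SoxC in new neurons had medians of 22.6 RPKM and 81.6 per kilobase of exon. Of these 11 genes 9 reached 1 RPKM and all 11 reached 1 per kilobase of exon, where 31.6% and 54.0% of protein-coding genes did. By RPKM the microtubule regulator Stmn1 was the highest at 223 and the bHLH factor Neurod6 the next at 194. The beta-tubulin gene Tubb3, a known target of Sox4 and Sox11, had 156 RPKM. Per kilobase of exon the order turned, with Tubb3 at 887, Stmn1 at 642 and Neurod6 at 310.

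Genes tied to Sox5 in corticofugal neurons, the cells that project below the cortex, included 5 of 8 at 1 RPKM or more and 8 of 8 at 1 or more per kilobase of exon, with a median of 1.76 RPKM and 23.4 per kilobase of exon. Fezf2, whose expression Sox5 is known to restrain and SoxC proteins to promote, was the highest at 27.0 RPKM. Tbr1, a factor of early deep-layer neurons, had 24.4 RPKM, and Foxp2, a forkhead factor, was the lowest at 0.0455 RPKM. Of the 10 genes tied to Sox6 in interneurons, 7 reached 1 RPKM and 9 reached 1 per kilobase of exon. The background for both lists is all protein-coding genes, of which 31.6% and 54.0% did. The medians of the Sox6 list were 2.15 RPKM and 7.22 per kilobase of exon. By RPKM the neuropeptide gene Sst led at 20.1 and the homeobox gene Dlx1 followed at 17.8, while per kilobase of exon the neuropeptide gene Npy (35.6) followed Sst (38.6), and Pvalb, which marks a class of mature interneurons, was the lowest at 0.000673 RPKM. The interneuron factor Lhx6, upstream of Sox6, is set beside it: Sox6 had 3.68 and Lhx6 13.4 per kilobase of exon.

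Of the 10 glial genes tied to Sox9, 4 reached 1 RPKM and 8 reached 1 per kilobase of exon, with medians of 0.674 RPKM and 4.84 per kilobase of exon. By RPKM the glycolytic enzyme gene Aldoc led at 17.4, the lipid carrier gene Apoe followed at 7.11, and Gfap, the filament of mature astrocytes, was the lowest at 0.109 RPKM. Nfia, a factor that acts with Sox9 in the onset of gliogenesis, stood at 0.276 RPKM and 8.78 per kilobase of exon. Of the 13 genes tied to Sox10, which include Sox8 itself, 4 reached 1 RPKM and 8 reached 1 per kilobase of exon, with medians of 0.387 RPKM and 1.79 per kilobase of exon. By RPKM the bHLH factors Olig1 (6.50) and Olig2 (2.81) were the highest and the homeobox gene Nkx2-2 the lowest, at 0.0157. The others at 1 RPKM or more were Sox8 and Mog, a myelin surface protein gene, at 1.02 RPKM. Per kilobase of exon Mog (7.56) stood above Olig1 (6.50), and Mag, another myelin gene, was the lowest at 0.0651. The myelin regulator Myrf, a direct target of Sox10, stood at 0.0205 RPKM. Nfib, another factor of gliogenesis, is held by the Sox5 and Sox9 lists alike, at 1.74 RPKM and 48.4 per kilobase of exon, above Aldoc (25.7) on the exon scale. No list is called high or low here, and the shares of all protein-coding genes, 31.6% at 1 RPKM and 54.0% at 1 per kilobase of exon, are the background for each count.

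**Figure D5:**
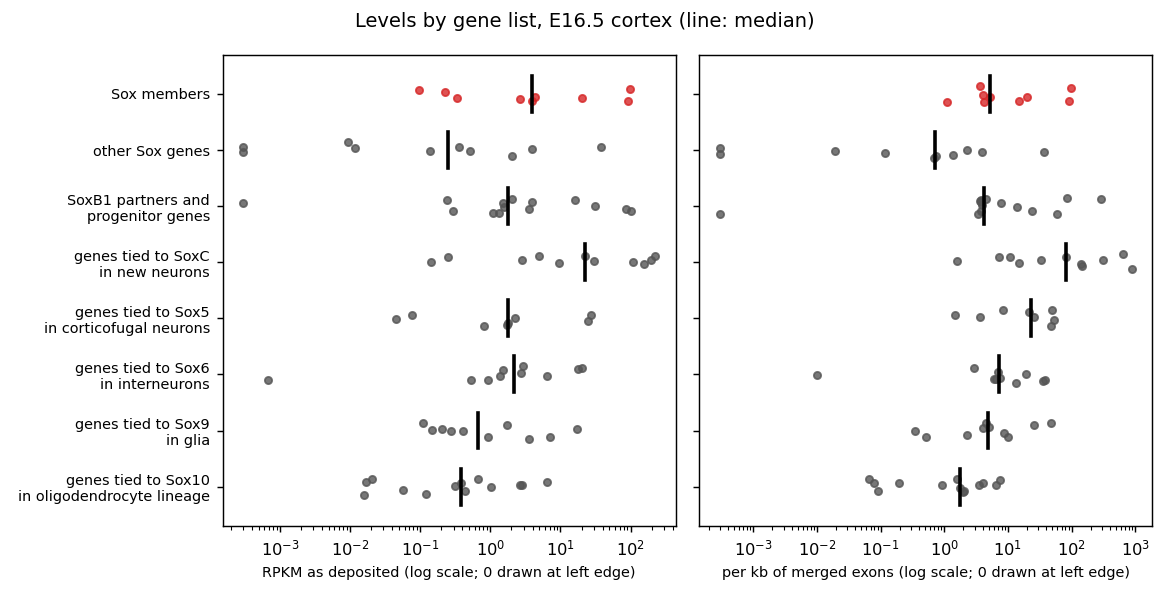
Levels of single genes (points, log axis, reads per kilobase, scaled to M reads) and list medians (black lines) for the 9 measured Sox genes (red) and the other lists (grey), as deposited on the left and per kilobase of merged exons on the right. Of the lists drawn, the one tied to SoxC has the highest median on both scales, 22.6 RPKM and 81.6 per kilobase of exon.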

How the data were processed

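RNA from E16.5 cortex was sequenced after Trizol extraction, RNeasy Micro clean-up and TruSeq library preparation on an Illumina HiSeq, per the labels' protocols. The authors deposited RPKM as 1 column, a mean over the 3 cortex libraries, and it was used as the authors' mean. DESeq 1.16.0, HTSeq 0.6.0, Cuffdiff 2.0.2, TopHat2 2.0.9 and Bowtie2 2.1.0 are named per the submitters' processing notes, as is the mouse build mm9 (NCBIM37), but not what each did. The tool behind the RPKM values and the treatment of reads matching several genes are unstated there.

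Of 37991 gene IDs, 32938 were found in GENCODE M21, which is on a later build, so no coordinates are given. The 5053 others held 2.3% of summed RPKM. Estimated reads are the product of RPKM, gene span and the summed depth found from the lowest values. The finding of depth was tested on simulated data made and read with the same gene spans. That test cannot show which length or scaling the authors used, and the estimates rest on gene span. Intervals are exact Poisson intervals at 95% on these estimates and cover counting error only. The floor was 3 reads, which is 0.016 per M reads. The authors' own gene lengths may differ from those of M21.

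HMG boxes were found in the longest open reading frame and compared base by base without gaps. The members and lists were chosen with earlier results of these data known. All members and other Sox genes are named, and of each list the highest, the next and the lowest gene, with further genes named after their values were seen. A gene that this rule names is not reported here. Alternatives were exon lengths, no length, other pseudocounts, sums, thresholds and backgrounds. Python 3.11.15, pandas 2.3.3, NumPy 2.4.6, SciPy 1.17.1 and Matplotlib 3.10.9 were used.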

Additional observations from a re-analysis of the deposited data

How the results depend on the processing

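SoxC stayed above the other 3 subgroups under every alternative tried. An alternative counted as a change where it moved a subgroup difference by over 1.5 times, a count by over 1.5 times or a percentile by over 5 points. All differences are on the log2 scale. With no length, SoxC minus SoxB1 was 4.95, SoxC minus SoxD 2.45, SoxB1 minus SoxE 0.61, SoxB1 minus SoxD -2.5 and SoxE minus SoxD -3.11. Per kilobase of merged exons, SoxC minus SoxE was 4.51, SoxC minus SoxD 3.64, SoxB1 minus SoxE 1.19, SoxB1 minus SoxD 0.31 and SoxE minus SoxD -0.88. With exons of protein-coding transcripts, chosen after seeing the data, these 5 were 4.51, 2.86, 1.19, -0.46 and -1.65. With a pseudocount of 1, SoxC minus SoxD was 6.36, SoxB1 minus SoxD 3.19 and SoxE minus SoxD 1.64, and with 0.01 they were 9.21, 5.87 and 4.05. With sums in place of medians, SoxB1 minus SoxD was 5.85 and SoxE minus SoxD 4.05. With no length, Sox11 was 1.63-fold above Sox4. The median percentile of the members among protein-coding genes, 88.0 as deposited, was 66.9 per kilobase of merged exons and 76.3 with no length. The count of members at 1 or more rose from 6 to 9 on both exon scales, which is all measured members. As this is not over 1.5 times, the rule counted it as unchanged, and no rise in this count could have passed that limit. By these rules, 34 of the alternative values counted as keeping their direction and size, 29 moved in size and 6 turned round. The changes with length follow from the lengths themselves, which differ most for Sox5 and Sox6. Leaving out single libraries could not be done with 1 mean column. No paired analysis was possible because the table has no column for a single library. Depth limits no member, as the least, Sox10, had an estimated 642 reads, but the spread between libraries is unknown for all.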
